A study of Mus musculus with 2 samples.

Results

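Interferon-high macrophage-like cells of MC38 tumors, called interferon-high macrophages here, were taken as complement-expressing cells with at least 8 unique molecular identifiers (UMIs, tags that each mark 1 captured RNA molecule) summed over *Ifit1*, *Ifit2*, *Ifit3*, *Rsad2* and *Cmpk2*. Gated macrophages had at least 5 UMIs of *C1qa*, *C1qb* and *C1qc*, no UMI of the T cell genes *Cd3e*, *Cd3g* and *Trac*, at most 1 UMI of the tumor cell genes *Krt8*, *Krt18* and *Rhox5*, and at most 2 UMIs of the cell cycle genes *Mki67*, *Top2a*, *Cdk1*, *Birc5* and *Ccna2*. Of 25402 cells that passed the quality filter, 6521 were gated macrophages, and 242 of these were interferon-high. The other 6279 are called other gated macrophages. The 5 interferon genes were the rule itself, so their levels, and every comparison between interferon-high and other gated macrophages, describe the cells that the rule chose and carry no test.

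The tumors grew from MC38, a mouse colon cancer cell line, injected subcutaneously into female mice of 6 to 8 weeks on the C57BL/6 background. The hosts were *Lmo7*+/+ (wild type) or *Lmo7*-/-, which lack the gene in the whole body, while the implanted tumor cells carried no such deletion. Live sorted cells of each genotype gave 1 droplet-based library, and the number of mice behind a library is not given in the sources used here. With 1 library per genotype there is no replicate and no test between genotypes, and every value below describes these 2 libraries. Values are given for the *Lmo7*+/+ library first and the library labelled *Lmo7*-/- second. The libraries held 16208 and 15163 droplets called as cells by the authors, with 98582479 and 80648345 UMIs, of which 13542 and 11860 cells were kept, at a median of 4535.5 and 4304.5 UMIs. A total of 279 cell barcodes occurred in both libraries, and 2 and 3 interferon-high macrophages carried one of them.

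Type I interferons are secreted proteins that bind the receptor IFNAR on nearly every cell. The receptor's kinases JAK1 and TYK2 activate STAT proteins, which join IRF9 and bind interferon-stimulated response elements, short DNA sequences near the start of interferon-stimulated genes. These genes encode antiviral proteins, sensors of viral RNA and DNA, chemokines and the enzymes that end the signal. In tumors, the same genes are known in a subset of macrophages, where the interferon can come from the macrophages themselves or from neighbouring cells.

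The genes behind the rule lie in pairs or groups. On GRCm38, *Ifit2* (ENSMUSG00000045932, chr19:34550694-34576419), *Ifit3* (ENSMUSG00000074896, chr19:34583531-34588731), *Ifit3b* (ENSMUSG00000062488, chr19:34607970-34613401) and *Ifit1* (ENSMUSG00000034459, chr19:34640871-34650009) lie on the plus strand within 99316 bases. *Rsad2* (ENSMUSG00000020641, chr12:26442746-26456452, minus strand) and *Cmpk2* (ENSMUSG00000020638, chr12:26469204-26479837, plus strand) lie head to head, 12751 bases apart. IFIT proteins bind viral RNA, RSAD2 (viperin) makes a nucleotide that stops viral RNA synthesis, and CMPK2 is a mitochondrial nucleotide kinase. The stretches below are shown because they hold the letters that the interferon-activated STAT and IRF complex is known to bind. Windows of 250 bases before to 50 bases after each start came from RefSeq on GRCm38.p6 and were searched for GAAA, any 2 bases and GAAA, the core of the response element, on both strands, where the other strand reads TTTC, any 2 bases and TTTC. Sequences run 5′ to 3′ on the gene's strand, and the capitals mark the matches. *Ifit1*, *Ifit3* and *Ifit3b* each held a pair of matches, *Rsad2* and *Cxcl10* 1 match each, and *Isg15* 3 matches that overlap.
Ifit1 (chr19:34640760-34640838, plus strand, matches 104 and 85 bases upstream): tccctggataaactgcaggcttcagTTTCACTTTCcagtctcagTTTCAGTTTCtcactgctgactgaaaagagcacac
Ifit3 (chr19:34583348-34583441, plus strand, 156 and 122 bases upstream): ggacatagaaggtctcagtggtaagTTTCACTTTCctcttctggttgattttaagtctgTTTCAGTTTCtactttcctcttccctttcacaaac
Ifit3b (chr19:34607744-34607837, plus strand, 188 and 154 bases upstream): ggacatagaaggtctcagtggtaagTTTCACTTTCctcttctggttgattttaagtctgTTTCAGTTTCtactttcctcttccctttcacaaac
Rsad2 (chr12:26456538-26456597, minus strand, 120 bases upstream): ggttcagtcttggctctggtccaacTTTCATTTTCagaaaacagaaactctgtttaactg
Isg15 (chr4:156200850-156200921, minus strand, 78 to 66 bases upstream): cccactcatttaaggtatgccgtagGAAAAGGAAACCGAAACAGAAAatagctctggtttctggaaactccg
Cxcl10 (chr5:92349068-92349127, minus strand, 213 bases upstream): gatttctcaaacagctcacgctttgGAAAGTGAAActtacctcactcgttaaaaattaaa

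The printed stretches of *Ifit3* and *Ifit3b* are the same 94 bases, and these genes are near-identical copies, so their counts are uncertain wherever reads could be split between them. *Ifit2*, *Cmpk2*, *Ifnb1* and *Oasl1*, the last among the highest ranked genes below, had no match to these letters in their windows. Of the 129 genes that were higher in interferon-high macrophages (defined below, without the 5 genes of the rule), 106 had a window, and 31 of these (29.2%) held the motif. It was in 3 of 102 windows of lower genes (2.94%), in 362 of 8326 windows of all genes compared (4.35%) and in 1131 of all 32851 windows (3.44%). Among listed interferon-stimulated genes 18 of 39 windows (46.2%) held it, and among interferon gamma targets 10 of 13 (76.9%). The higher genes were called in cells chosen for interferon-stimulated genes, so their share describes that choice and tests nothing. A second planned motif, TTC, any 3 bases and GAA, was in 7.55% of windows of higher genes. It was in 8.82% of those of lower genes, 8.22% of those of all genes compared and 61.5% of those of interferon gamma targets. A match is a run of letters, not a measured binding site.

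*Lmo7* (ENSMUSG00000033060, chr14:101729957-101934710) had no count in the interferon-high macrophages of either library. In other gated macrophages it had 16 and 15 counts, which is 1.27 and 1.03 CPM (counts scaled to 1000000 summed UMIs of the same cells). These levels do not separate the libraries, the bases deleted in the mutant are not given in the sources used here, nor is the end of the transcript that was read. The genotype therefore rests on the label, and the term "the library labelled *Lmo7*-/-" is used wherever a direction is given.

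Interferon-high macrophages made up a smaller share of gated macrophages in the library labelled *Lmo7*-/-. In the *Lmo7*+/+ library 132 of 2923 gated macrophages passed (4.52%, exact binomial interval 3.79 to 5.33), and in the other library 110 of 3598 (3.06%, 2.52 to 3.67), a difference of −1.46 percentage points (Newcombe interval −2.42 to −0.531). As a share of all kept cells they were 0.975% and 0.927% (difference −0.0473 points, −0.286 to 0.195), while gated macrophages themselves were 21.6% and 30.3% of kept cells (difference 8.75 points). All intervals here are 95% intervals for the error of counting, and differences among mice lie outside them. The gate is a fixed number of UMIs, so deeper cells reach it more readily: interferon-high macrophages had a median of 6104.5 and 5988 UMIs, other gated macrophages 4210 and 3813. Among cells with 1000 to 3000 UMIs the shares were 1.30% (12 of 923) and 0.858% (11 of 1282), among those with 3000 to 6000 UMIs 4.21% (52 of 1236) and 2.87% (45 of 1567), and above that 8.90% (68 of 764) and 7.21% (54 of 749). The share was lower in the library labelled *Lmo7*-/- in each of the 3 depth classes, and the interval of each of these differences included 0 (−1.47 to 0.429, −2.79 to 0.0322 and −4.46 to 1.07 points). Cycling macrophages, which the rule leaves out, reached 8 UMIs in 59 of 1343 cells (4.39%) and 38 of 1163 cells (3.27%).

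The class is a range cut from a count, and whether its cells form a group of their own was not tested. Of the gated macrophages, 62.1% and 65.0% had no UMI of the 5 genes. At 5, 6, 7, 8, 9 and 10 UMIs there were 52, 23, 18, 15, 13 and 11 cells in the *Lmo7*+/+ library and 52, 30, 30, 18, 9 and 10 in the other. Over both libraries 205 cells had 5 to 7 UMIs, just outside the gate, and 76 had 8 to 10, just inside. Interferon-high macrophages had a median of 14 and 13 UMIs of the 5 genes and at most 135 and 118. Cells with 16 or more UMIs numbered 56 (1.92% of gated macrophages) and 45 (1.25%). Scrublet, which scores doublets, marked 0 and 1 interferon-high macrophages and 88 and 74 other gated macrophages, and doublets were kept.

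**Figure D1:**
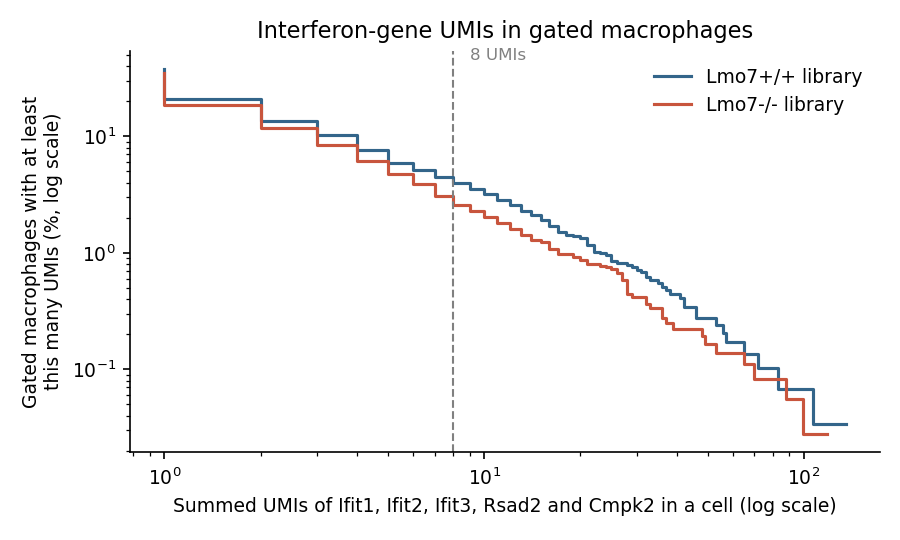
Share of gated macrophages (percent, log axis) with at least a given number of UMIs summed over *Ifit1*, *Ifit2*, *Ifit3*, *Rsad2* and *Cmpk2* (log axis), with 1 line per library and the limit of 8 UMIs dashed. A share of cells with at least a given count falls by construction, and at 8 UMIs the lines pass 4.52% in the *Lmo7*+/+ library and 3.06% in the library labelled *Lmo7*-/-.

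The gate asked for *C1q* RNA, barred 3 T cell genes and held *Krt8*, *Krt18* and *Rhox5* to 1 UMI, so the values of those genes follow from it and do not check the label. Of the macrophage markers that the gate did not use, *Adgre1* (F4/80) had 367 and 378 CPM, *Csf1r*, the receptor for the growth factor of macrophages, 669 and 742 CPM and *Cd68* 1061 and 1230.3 CPM. None of 12 macrophage markers differed 2-fold, and their sum was 19284 and 21521 CPM against 18509 and 22092 CPM in other gated macrophages, led by *C1qc* of the gate. Tumor cell markers summed to 13 and 6.80 CPM (19.9 and 16.2 in other gated macrophages), with *Krt8*, *Krt18*, *Krt20* and *Epcam* at 0 and *Rhox5* leading. T cell markers summed to 37.9 and 35.3 CPM (29.2 and 30.1), led by *Cd4*. Conventional dendritic cell markers summed to 81.8 and 97.9 CPM (116 and 140), with *Flt3* and *Cd209a* at 0. Plasmacytoid dendritic cell markers summed to 825 and 733 CPM (563 and 568), led by *Bst2* (tetherin), which interferon also induces in other cells, while *Siglech* had 6 UMIs in 2 *Lmo7*+/+ cells and none in the other library. Monocyte markers summed to 865 and 272 CPM (446 and 309), with a UMI in 48.5% and 34.5% of cells, and are described with the comparison of libraries. Neutrophil markers reached 74.7 and 69.3 CPM (51.4 and 56.5), with *Ly6g* at 0. Endothelial markers reached 65.2 and 85.6 CPM (42.5 and 71.4), with *Tie1* at 0 and *Cdh5* at 2 and 0 counts, while *Kdr*, a receptor for vascular endothelial growth factor, was higher than in other gated macrophages in both libraries (2.59 and 2.70). Fibroblast markers were 33.2 and 121 CPM (81.9 and 70.1), and *Col3a1* gave 70 of the counts in the library labelled *Lmo7*-/-, 61 of them in 1 cell. The median mitochondrial share was 5.23% and 4.55%, against 5.59% and 5.33% in other gated macrophages.

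Within the 5 genes, *Rsad2* gave the most UMIs. It had 1481 and 1595 CPM and made up 47.0% and 54.2% of the UMIs of the 5 genes. The level of *Ifit3* was 641 and 454 CPM, of *Ifit1* 450.5 and 443, of *Ifit2* 394 and 321 and of *Cmpk2* 184 and 132 CPM. A UMI marks 1 molecule, so these counts were not divided by length, and how well each gene is captured was not measured. Other gated macrophages had 65.7 and 76.3 CPM of *Rsad2* and between 6.77 and 42.9 CPM of each of the other 4 genes. A UMI of *Rsad2* was in 97.7% and 95.5% of interferon-high macrophages, and one of *Cmpk2* in 53.8% and 41.8%. All 5 genes were detected in 43 and 30 cells, and 1 gene alone in 5 and 11 cells. *Rsad2* alone brought 55 and 53 cells to the limit of 8, and 62 and 60 cells would have missed it without *Rsad2*. Among interferon-high macrophages the UMIs of *Rsad2* and *Ifit3* were nearly unrelated (Spearman 0.017 and 0.026 over 132 and 110 cells), while those of *Ifit1* and *Ifit2* rose together (0.41 and 0.47), as a description of cells of 1 library that were chosen on the sum of these genes.

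A group of 14 and 20 cells entered on *Rsad2* with at most 2 UMIs of the other 4 genes together. They are called *Rsad2*-led cells, a split made after the values were seen, and the remaining 118 and 90 cells several-gene cells. Median *Rsad2* was 9 and 9.5 UMIs in *Rsad2*-led cells and 6 and 6 in several-gene cells, at similar median depths (6262.5 and 5802.5 against 6104.5 and 6030 UMIs). The split chose *Rsad2*-led cells for few UMIs of the other 4 genes, so their levels of interferon-stimulated genes describe that choice. *Isg15*, which encodes a ubiquitin-like modifier, had 737 and 550 CPM in *Rsad2*-led cells, 1425 and 1276 CPM in several-gene cells and 332 and 339 CPM in other gated macrophages. *Usp18*, whose product removes ISG15 and blocks the receptor, had 30.7 and 44.6 CPM against 209 and 128 CPM. *Irf7*, a transcription factor that amplifies interferon production, had 420 and 312 CPM against 1128 and 812 CPM. Summed over a list of 46 other interferon-stimulated genes in the table, the level was 8957 and 7367 CPM in *Rsad2*-led cells, 17019 and 14127 CPM in several-gene cells and 6859 and 6784 CPM in other gated macrophages. Nucleic acid sensors stood at 1034 and 1130 CPM in *Rsad2*-led cells, near the 1019 and 1133 CPM of other gated macrophages, and at 2388 and 1890 CPM in several-gene cells. *Mmp12*, a macrophage elastase, was at 747 and 1561 CPM in *Rsad2*-led cells against 371 and 331 CPM in several-gene cells, and *Gpnmb*, a glycoprotein of lipid-laden macrophages, at 368 and 409 against 170 and 136 CPM. With 14 and 20 cells, single cells weigh heavily in these sums.

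**Figure D2:**
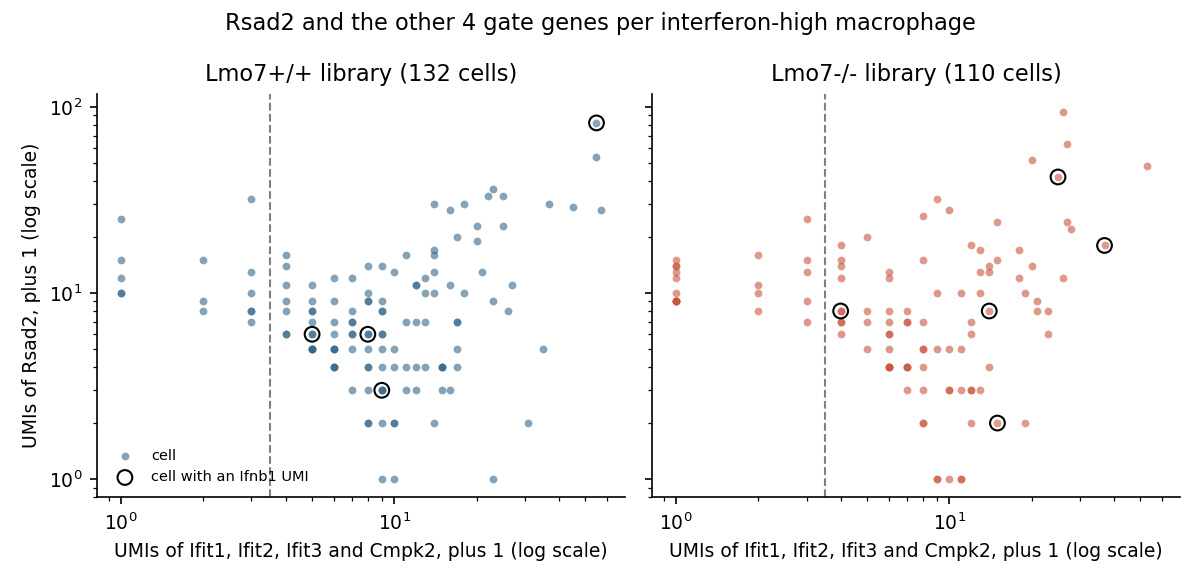
UMIs of *Rsad2* (plus 1, log axis) against summed UMIs of *Ifit1*, *Ifit2*, *Ifit3* and *Cmpk2* (plus 1, log axis) in each interferon-high macrophage, 1 panel per library (132 and 110 cells), with rings around the 4 and 5 cells that have an *Ifnb1* UMI. The 14 and 20 *Rsad2*-led cells lie left of the dashed line, with at most 2 UMIs of the other 4 genes.

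Against other gated macrophages, a gene was called higher or lower when its CPM differed by a log2 ratio of at least 1 in both libraries, among genes with at least 20 counts in each. Of 10402 genes compared, 134 were higher (1.29%) and 140 were lower (1.35%), or 130 and 280 when levels were averaged over cells, and the median log2 ratio over all genes was −0.15 and −0.07. With cells thinned to 1500 UMIs, 134 were higher and 145 lower of 7974, of which 79 and 6 genes were among these calls, so most of the lower calls were not shared. The deeper cells and the gate on UMIs move with this comparison, and their part in it was not tested. The higher genes ranked first by their smaller ratio were antiviral effectors, sensors and signal regulators of the interferon response, with *Il15*, *Ccl4* and the lysosomal genes *Gpnmb* and *Atp6v0d2* among the first 15. The 10 lowest ranked genes had at most 7 counts each in either library, for example *Mmp9*, a matrix metalloproteinase (6 and 6 counts, log2 ratio −1.87 and −1.75), and *Birc5*, an inhibitor of apoptosis that the gate restricts (4 and 2 counts).

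**Figure D3:**
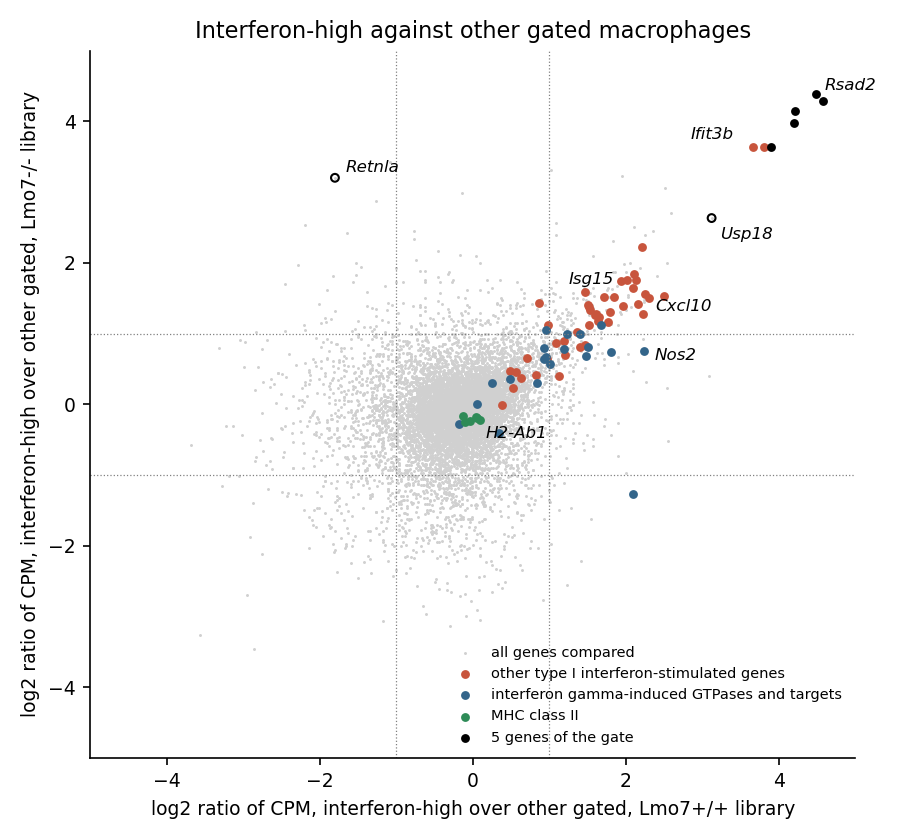
Log2 ratio of CPM in interferon-high over other gated macrophages for 10402 genes, with the *Lmo7*+/+ library on the x axis and the library labelled *Lmo7*-/- on the y axis, where dotted lines mark a ratio of 1 and −1 and genes without counts in a group are drawn at their bound. Interferon-stimulated genes (red) lie to the upper right in both libraries, interferon gamma targets (blue) mostly below them, MHC class II genes (green) near 0, and *Retnla* lies past the dotted lines in opposite directions.

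Interferon genes themselves were rare. No UMI of any interferon alpha gene was found in gated macrophages, and *Ifng* had none in interferon-high macrophages, while gated T cells held 145 of 215 and 251 of 319 *Ifng* UMIs of all kept cells. *Ifnb1* (ENSMUSG00000048806, chr4:88522025-88522774, minus strand), which encodes interferon beta, had 7 and 12 UMIs in 4 and 5 interferon-high macrophages (8.30 and 16.3 CPM) and 1 and 1 UMI in other gated macrophages. Over both libraries 9 of 242 interferon-high macrophages (3.72%, 1.71 to 6.94) and 2 of 6279 other gated macrophages (0.0319%) had an *Ifnb1* UMI. Of the 33 *Ifnb1* UMIs in all kept cells, 19 were in interferon-high macrophages. Outside the gated macrophages, 5 of 460 cells with at least 8 UMIs of the 5 genes had one (1.09%), at median depths of 10751.5 and 11930 UMIs, against 7 of 18421 cells with fewer (0.0380%). The rule did not use *Ifnb1*, but the same cells were chosen for genes of the same response.

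The 9 cells with an *Ifnb1* UMI carried much RNA of *Ccl4*, a chemokine that attracts T cells and monocytes. In the 4 *Lmo7*+/+ cells *Ccl4* ranged from 9 to 63 UMIs with a median of 22, and in the 5 cells of the other library from 10 to 70 with a median of 37. Every one of the 9 cells was thus above the median of 0 in interferon-high macrophages without an *Ifnb1* UMI, of which 63 of 128 and 48 of 105 had any *Ccl4* UMI. Summed *Ccl4* was 4354 and 8981 CPM in the *Ifnb1* cells, 1131 and 875 CPM in the rest of the interferon-high macrophages and 271 and 291 CPM in other gated macrophages. *Tnf*, the cytokine TNF, followed the same order at 1989 and 1220, 217 and 207, and 72.0 and 95.6 CPM, although 48 of its 53 UMIs in the *Lmo7*+/+ *Ifnb1* cells came from 1 cell. *Rsad2*, a gene of the rule, stood at 3491 and 3563 CPM in *Ifnb1* cells and 1415 and 1538 CPM in the rest. Of its UMIs in *Ifnb1* cells, 81 of 93 and 41 of 73 came from 1 cell in each library. The median per cell was not higher, at 5 and 7 UMIs in *Ifnb1* cells and 6.5 and 7 in the rest. That of *Cxcl10* was lower in both libraries, at 3.5 and 4 against 5 and 5 UMIs. For *Isg15* it was 5.5 and 9 against 7 and 6 UMIs, with no shared direction. *Ccl3* had medians of 12.5 and 4 against 0 and 0 UMIs, and *Il6* 1 and 0 against 0 and 0. The *Ifnb1* cells had between 1237 and 12629 UMIs in all.

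Receptors and kinases of interferon signalling were at the level of other gated macrophages. None of 8 genes compared differed 2-fold, with median log2 ratios of 0.11 and 0.11, and their sum was 1033 and 1014 CPM against 1015 and 993 CPM. *Ifnar1* and *Ifnar2*, the chains of the type I receptor, had log2 ratios of −0.32 and 0.01 and of 0.28 and 0.10. *Jak1* and *Tyk2* had −0.14 and 0.15 and 0.29 and 0.12.

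Of the transcription factors of the response, *Stat2*, which joins IRF9, was higher in both libraries, with 225 and 192 CPM against 71.9 and 77.9 CPM (log2 ratio 1.65 and 1.30). *Irf7* had 1046 and 721 CPM against 435 and 375 CPM (1.27 and 0.94), so it passed the limit in the *Lmo7*+/+ library alone. *Irf9*, the DNA-binding part of the complex, had 0.14 and 0.16, and *Irf1*, which interferon gamma also induces, 0.23 and 0.13.

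Sensors of viral RNA led the next group, in which 4 of 13 genes were higher (medians 1.03 and 0.62). *Ddx58*, which encodes the RNA sensor RIG-I, had 189.7 and 117 CPM against 43.1 and 32.7 CPM, a log2 ratio of 2.14 and 1.84. *Ifih1*, the sensor MDA5, had 327 and 222 against 79.9 and 77.4 CPM (2.03 and 1.52). *Tlr3*, an endosomal receptor for double-stranded RNA, had 39.1 and 38.1 against 10.8 and 10.5 CPM (1.85 and 1.86), and *Eif2ak2*, the kinase PKR, had ratios of 1.10 and 1.20. *Mavs*, the adaptor of RIG-I and MDA5, and *Tmem173* (STING), the adaptor of cGAS, had ratios of −0.08 and −0.33 and 0.10 and −0.12.

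Among 44 listed interferon-stimulated genes compared, 28 were higher and none lower, with median log2 ratios of 1.57 and 1.28. *Mx1* and *Mx2* were not in the feature table. *Ifit3b*, the copy of *Ifit3*, had 90.1 and 72.1 CPM against 7.08 and 5.81 CPM (3.67 and 3.63), which is uncertain for the reason given above. *Oasl1*, which limits *Irf7* translation, had 461 and 479.9 CPM against 99.2 and 103 CPM (2.22 and 2.22). *Slfn5*, a Schlafen family gene, had 671 and 443 against 153 and 131 CPM (2.13 and 1.76), and *Isg20*, an RNA exonuclease, 142 and 74.8 against 32.9 and 20.8 CPM (2.11 and 1.85). *Ifi209* (2.00 and 1.87) and *Ifi206* (2.1 and 1.77), genes of the DNA-binding PYHIN family, and *Nt5c3*, a nucleotidase (1.94 and 1.74), were also among the first 15. *Bst2* (0.49 and 0.47) and *Ifitm3* (0.53 and 0.23), which block viral release and entry, were already at 398 and 413 and at 1458 and 1571 CPM in other gated macrophages. Per cell, the list had a median of 157 and 128 UMIs per 10000 in interferon-high macrophages and 62.6 and 62.0 in other gated macrophages.

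*Isg15* (ENSMUSG00000035692, chr4:156199424-156200818, minus strand) had 1346 and 1143 CPM against 332 and 339 CPM (2.02 and 1.75). After each cell was thinned to 1500 UMIs, which left out 2 and 3 interferon-high and 309 and 397 other gated macrophages, 75.4% and 71.0% of the former and 33.4% and 34.3% of the latter had an *Isg15* UMI (97.7% and 95.5% against 56.1% and 55.0% before thinning). *Usp18* (ENSMUSG00000030107, chr6:121245906-121270917) had 188 and 113 CPM against 21.6 and 18.2 CPM, and its log2 ratios of 3.12 and 2.63 were second to *Ifit3b* among the genes named by rank. *Herc6*, the ligase that attaches ISG15, had 1.88 and 1.68. *Socs1*, an inhibitor of JAK kinases, had 35.6 and 103 CPM against 33.7 and 55.8 CPM (0.08 and 0.89), so that the libraries differed more in it than in *Usp18*. In all, 3 of 8 genes of ISG15 conjugation and feedback were higher.

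Interferon gamma targets were less uniform. Of 20 genes, 1 was higher in both libraries (medians 0.98 and 0.67), namely *Gbp5*, a guanylate-binding protein that acts on pathogen membranes (87.7 and 102 against 27.5 and 46.8 CPM, 1.67 and 1.12). *Iigp1*, an immunity-related GTPase, had 288 and 276 CPM in interferon-high and 82.4 and 166 CPM in other gated macrophages (1.81 and 0.73). *Nos2*, the inducible nitric oxide synthase, had 138 and 190.3 CPM in interferon-high and 29.1 and 113 CPM in other gated macrophages (2.24 and 0.75), with 39 of 116 *Lmo7*+/+ UMIs in 1 cell. The log2 ratio of *Iigp1* between libraries (*Lmo7*-/- label over *Lmo7*+/+) was −0.06 (−0.34 to 0.21) in interferon-high and 1.01 in other gated macrophages. That of *Nos2* was 0.47 (0.10 to 0.84) and 1.96, and 0.91 (0.49 to 1.34) in interferon-high macrophages without the cell with most counts in each library. *Cxcl9*, a T cell chemokine, had 997 and 1958 CPM against 713 and 1529 CPM (0.48 and 0.36).

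Antigen presentation genes were near the level of other gated macrophages. None of 6 MHC class II genes (medians 0.00 and −0.21) and none of 16 MHC class I and peptide loading genes (0.27 and 0.19) passed the limit. The MHC class II sum was 33175 and 37537 CPM in interferon-high and 32436 and 43171 CPM in other gated macrophages, a higher and a lower value in the 2 libraries. Class I and loading genes summed to 17600 and 21041 CPM against 14826 and 18829 CPM. None of 14 phagocytosis and Fc receptor genes passed the limit either (0.00 and −0.01). Of 7 costimulatory and checkpoint ligands none passed it in both libraries (0.14 and 0.45), but their sum was higher, at 1209 and 1324 CPM against 778 and 977 CPM.

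Chemokines with 2-fold higher levels were *Cxcl10*, *Ccl3*, *Ccl4* and *Ccl5*, 4 of 16 genes compared (medians 0.92 and 0.68). *Cxcl10* (ENSMUSG00000034855, chr5:92346638-92348889, minus strand), which attracts T cells through CXCR3, had 1724 and 1570.2 CPM against 363 and 532 CPM (2.25 and 1.56). *Ccl5* had 595 and 1210.0 CPM against 142 and 466 CPM (2.06 and 1.38) and *Ccl4* 1233 and 1101 against 271 and 291 CPM (2.19 and 1.92). The monocyte attractants *Ccl2*, *Ccl7* and *Ccl12* had ratios of 1.27 and 0.56, of 1.62 and 0.73 and of 1.44 and 0.82. Of 15 cytokines and NF-kB targets 2 were higher, *Tnf* (273 and 235 against 72.0 and 95.6 CPM, 1.92 and 1.30) and *Il15*, which sustains NK and T cells (33.2 and 42.1 against 8.43 and 10.7 CPM, 1.98 and 1.98). *Il1b* had 0.13 and −0.32 and *Il1rn*, the receptor antagonist, 1.18 and 0.15. *Il6* rested on 24 and 9 UMIs, 15 of them in 1 *Lmo7*+/+ cell.

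*Gpnmb* was also higher. It had 193 and 186 CPM against 45.6 and 51.7 CPM (2.08 and 1.85), but its 163 and 137 UMIs lay in 14 and 20 cells, with 59 and 39 in the cell with the most. With a gate of 20 UMIs of the 5 genes per 10000 UMIs in place of 8 UMIs, the *Lmo7*+/+ ratio was −0.17 and the call was lost. *Atp6v0d2*, a subunit of the proton pump that acidifies lysosomes, had 36 and 33 UMIs in 9 and 11 cells (2.41 and 1.82). Of the lists for monocyte transition (6 genes), hypoxia (8), dissociation stress (10), *Ccl8* and *Igf1* (7) and *Cd300e* and *Fcrl5* (3), no gene was higher or lower. Only 1.29% and 1.35% of all genes were, so such short lists would hold few calls in any case. In the same order, median log2 ratios were 0.72 and −0.10, 0.04 and 0.25, 0.49 and 0.39, 0.26 and 0.25, and −0.41 and 0.36. Over all genes they were −0.15 and −0.07. *Mlkl*, the executor of necroptosis, was 1 of 8 cell death genes and higher (1.33 and 1.01), and *Birc5* was lower among 10 proliferation genes.

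Gated macrophages were also grouped by their UMIs of the 5 genes. Below the limit, *Isg15*, *Usp18* and the summed interferon-stimulated genes and chemokines were already higher in bins with more of these UMIs. The sums of transcription factors, nucleic acid sensors, feedback genes and MHC class I genes rose there too. Sensors, for example, went from 876 CPM at 0 UMIs to 1529 CPM at 4 to 7 in the *Lmo7*+/+ library, and from 1023 to 1471 CPM in the other. Receptors and kinases did not rise. From 0 to 1, 2 to 3, 4 to 7, 8 to 15 and 16 or more UMIs, *Isg15* had 228, 341, 559, 766, 1263 and 1438 CPM in the *Lmo7*+/+ library. The other library had 259, 363, 517, 656, 924 and 1446 CPM. The summed list of other interferon-stimulated genes went from 5862 to 18018 CPM and from 5981 to 15643 CPM, with a higher value in each bin than in the one before. Interferon gamma targets went from 1644 to 3919 CPM in the *Lmo7*+/+ library, while in the other they started at 3220 CPM, reached 5205 CPM at 8 to 15 UMIs and stood at 4798 CPM above. Receptors and kinases stayed between 938 and 1113 CPM in these bins of either library. From 0 to 4 to 7 UMIs, hypoxia and glycolysis genes went from 3408 to 2883 CPM and from 3879 to 4013 CPM, and proliferation genes from 1033 to 841 CPM and from 848 to 679 CPM. MHC class II fell in the highest bin of the library labelled *Lmo7*-/-, to 31286 CPM from 42067 to 44668 CPM in the bins below it. The bins held 1816, 494, 315, 166, 76 and 56 cells and 2340, 593, 363, 192, 65 and 45 cells, and the median depth grew from 3880.5 to 6862 UMIs and from 3561.5 to 6150 UMIs.

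**Figure D4:**
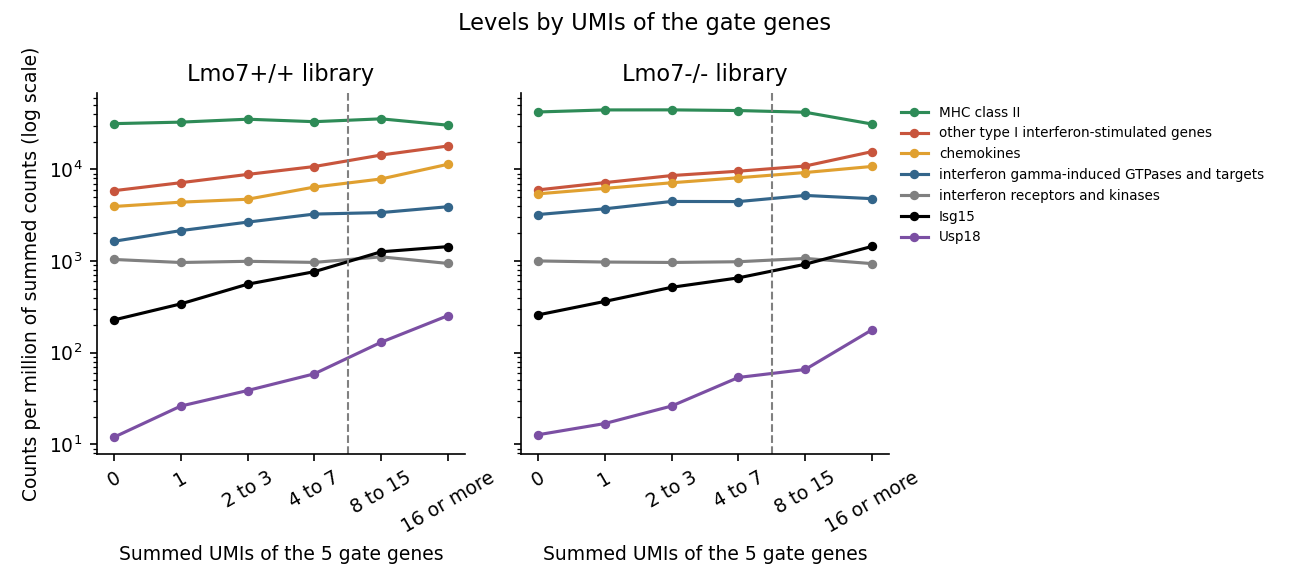
Summed CPM (log axis) of *Isg15*, *Usp18* and 5 gene lists in gated macrophages grouped by their UMIs of the 5 genes of the gate, 1 panel per library, with the limit of 8 UMIs dashed. Interferon-stimulated genes, chemokines, *Isg15* and *Usp18* are higher in each bin than in the one before, receptors and kinases stay near 1000 CPM (938 to 1113), and MHC class II is lowest in the last bin.

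Genes most like the sum of the 5 genes over all gated macrophages thinned to 1500 UMIs (2612 and 3198 cells, 9031 genes) were *Isg15*, *Slfn5*, *Oasl2*, *Oasl1*, *Ifi204*, *Ifi47*, *Irf7*, *Ifi209*, *Rnf213* and *Cxcl10*. Their Spearman correlations were weak, from 0.277 and 0.205 for *Isg15* to 0.181 and 0.113 for *Cxcl10*, in sparse counts that share library and depth.

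UMIs of the 5 genes were also found in other cells, gated on raw UMIs of their own markers. The share that came from free RNA in the droplets was not estimated, so the low levels are not read as expression. The summed level was 3150 and 2945 CPM in interferon-high macrophages and 350 and 298 CPM in all gated macrophages. Cells gated as endothelial had 1096 and 654 CPM (69 and 52 cells) and monocytes 625 and 534 CPM (162 and 118 cells). Cycling macrophages (239 and 193 CPM), fibroblasts (226 and 199) and dendritic cells (174 and 92.0) followed. T cells had 74.7 and 48.7 CPM, tumor cells 72.4 and 88.0 CPM and NK cells 49.3 and 29.5 CPM. Over all kept cells 380 and 322 reached 8 UMIs of the 5 genes, and cells gated as tumor cells are far deeper (medians of 16307 and 16344.5 UMIs).

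Between libraries, the interferon-high macrophages of the library labelled *Lmo7*-/- had more RNA of *Socs1* and *Ccl5* and less of *Ly6c2*, *Plac8* and *Slfn4*. Of 6877 genes with at least 20 counts over the interferon-high macrophages of both libraries, 171 were at least 2-fold higher (2.49%) and 205 at least 2-fold lower (2.98%) in the library labelled *Lmo7*-/-. With at least 100 counts 9 and 9 of 2560 genes passed (0.352% each), and with cells thinned to 1500 UMIs 79 (2.75%) and 132 (4.60%) of 2870, of which 9 and 12 genes were among these calls. Of the 18 genes with at least 100 counts past the limit, *Socs1* alone stayed past it under each of 14 alternatives, with ratios of 1.43 to 1.90, so the size of the other ratios below depends on the gate or the processing. The median log2 ratio was −0.04, and 3176 ratios were above 0. In other gated macrophages the same genes had a median of −0.09. With 1 library per genotype, genotype and library cannot be told apart. The log2 ratios below are those of the library labelled *Lmo7*-/- over the *Lmo7*+/+ library, with counting intervals.

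The 5 genes of the rule differed less than 2-fold: the ratio was 0.11 (−0.01 to 0.22) for *Rsad2*, −0.02 (−0.24 to 0.19) for *Ifit1*, −0.29 (−0.54 to −0.05) for *Ifit2*, −0.50 (−0.70 to −0.30) for *Ifit3* and −0.48 (−0.86 to −0.10) for *Cmpk2*. The other interferon-stimulated genes leaned lower in the library labelled *Lmo7*-/-. Of 44 genes none was 2-fold higher and 3 were lower, the ratio was above 0 for 3 of 44, and the median was −0.42 against −0.15 in other gated macrophages. Summed counts gave 16086 and 12891 CPM, a log2 ratio of −0.32 (−0.36 to −0.28), against −0.02 in other gated macrophages. *Slfn4*, a Schlafen gene of myeloid cells, had 128 and 40.8 CPM (−1.65, −2.29 to −1.06), *Ifi35* 145 and 68.0 CPM (−1.09, −1.59 to −0.60) and *Ifit1bl1* 73.5 and 27.2 CPM (−1.43, −2.24 to −0.69). Thinned to 1500 UMIs, *Ifi35* had −0.57, which is under the limit. *Usp18* had −0.74 (−1.14 to −0.35) and *Isg15* −0.23 (−0.37 to −0.10). Interferon gamma targets had the opposite sign, with a median of 0.30 (0.71 in other gated macrophages) and a summed ratio of 0.47 (0.40 to 0.54) against 0.84. None of 19 passed the limit, and *Cxcl9* came closest with 0.97 (0.85 to 1.10). The ratios for *Irf1* and *Irf7* were 0.83 (0.53 to 1.13) and −0.54 (−0.70 to −0.38). Among 13 sensors *Mb21d1* (cGAS) alone passed the limit, at 33 and 14 counts.

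Receptors and kinases showed no 2-fold difference in 8 genes (median −0.03), nor did 6 MHC class II genes (0.16, against 0.37 in other gated macrophages), 16 MHC class I and loading genes (0.11 against 0.32) or 14 phagocytosis genes (0.26 against 0.27). *Socs1* was 1 of 8 feedback genes past the limit, with 35.6 and 103 CPM in 19 and 34 cells (1.54, 0.91 to 2.20, and 0.73 in other gated macrophages). Among chemokines *Ccl5* had 595 and 1210.0 CPM (1.02, 0.86 to 1.18) and *Cxcl1*, a neutrophil attractant, 156 and 333 CPM (1.09, 0.78 to 1.41). The ratio of *Ccl5* was 0.79 without *Rsad2*-led cells, 0.88 with cells thinned to 1500 UMIs and 2.01 with at least 16 UMIs of the 5 genes. Both genes were also higher in other gated macrophages of that library (1.71 and 1.00). The monocyte attractants *Ccl2* (−0.86, −1.16 to −0.57), *Ccl7* (−0.85, −1.08 to −0.63) and *Ccl12* (−0.87, −1.03 to −0.71) were lower by less than the limit, against ratios of −0.15, 0.04 and −0.25 in other gated macrophages. *Pdcd1lg2*, the checkpoint ligand PD-L2, had 9.48 and 82.9 CPM (3.13, 2.06 to 4.40), and other gated macrophages 9.14 and 45.9 CPM. *Cd40*, a costimulatory receptor, had 228 and 114 CPM (−0.995, −1.38 to −0.62) against 60.8 and 71.5 CPM. *Cd300e*, a myeloid activating receptor, had 15.4 and 53.0 CPM (1.78, 0.85 to 2.81) and *Xcr1*, a chemokine receptor known from dendritic cells, 16.6 and 38.1 CPM (1.20, 0.22 to 2.24), with 1.01 and 1.57 in other gated macrophages. *Il18bp*, which neutralizes interleukin 18, had 171 and 341 CPM (0.999, 0.70 to 1.31, 1.34 in other gated macrophages).

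Of the monocyte genes, *Ly6c2* and *Plac8* were lower in the library labelled *Lmo7*-/-, by an amount that depended on the gate. *Ly6c2* (ENSMUSG00000022584, chr15:75108158-75111970, minus strand), a surface protein of inflammatory monocytes, had 372 and 73.4 CPM in 30 and 14 cells (−2.34, −2.79 to −1.92), where other gated macrophages had 125 and 72.0 CPM. *Plac8*, another monocyte gene, had 307 and 87.0 CPM in 41 and 19 cells (−1.82, −2.24 to −1.42) and 158 and 101 CPM in other gated macrophages. Of 6 genes of monocyte transition, 3 passed the limit (*Ly6c2*, *Plac8* and *Chil3*, the last at 17 and 4 counts), 5 of 6 ratios were below 0 and *Vcan* had 0.75 at 13 and 19 counts. *Ly6c2* and *Plac8* gave 314 and 259 of the list's 730 *Lmo7*+/+ counts, and the summed level was 865 and 272 CPM (−1.67, −1.90 to −1.44) against 446 and 309 CPM. With a gate of 4 UMIs on cells thinned to 2000 UMIs the summed ratio was −0.60 and those of *Ly6c2* and *Plac8* −0.82 and −0.41, and with at least 16 UMIs the sum had −0.80 and *Plac8* −0.69, all under the limit. Cells with at least 3 UMIs of *Ly6c2*, *Chil3* and *F10* were 24 of 132 (18.2%) and 7 of 110 (6.36%), against 6.70% and 4.79% of other gated macrophages. After thinning to 1500 UMIs the 4 shares were 9.23%, 0.935%, 3.42% and 1.88%. The summed level of the 7 listed genes was 983 CPM in *Lmo7*+/+ cells with 8 to 15 UMIs of the 5 genes and 734 CPM in those with 16 or more. In the library labelled *Lmo7*-/- it was 164 and 421 CPM in the same classes, which lie below and above the 309 CPM of other gated macrophages.

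*Mt2*, a metallothionein, had 146 and 387 CPM (1.41, 1.10 to 1.73, 0.37 in other gated macrophages), and *Tnfrsf9*, the receptor 4-1BB, 46.2 and 99.2 CPM (1.10, 0.52 to 1.70, 0.23). *Klra17* had 47.4 and 117 CPM (1.30, 0.74 to 1.88). *Spp1*, osteopontin, ran the other way at 166 and 69.3 CPM (−1.26, −1.75 to −0.79), with 49 of 140 *Lmo7*+/+ UMIs in 1 cell. *Fn1*, fibronectin, had 49.8 and 139 CPM (1.48, 0.95 to 2.03), with 30 of 102 UMIs in 1 cell of the library labelled *Lmo7*-/-, and the fibroblast markers given above move with it. *Hspa1a*, a heat shock gene that tissue dissociation also raises, had 529.9 and 205 CPM (−1.37, −1.64 to −1.10), beside a sum of 10 dissociation genes of 4860 and 3796 CPM (3574 and 2935 in other gated macrophages). The part of fibroblast RNA and of dissociation in these ratios was not tested. Several of these ratios changed with the gate or with the cells left out. With 20 UMIs per 10000 that of *Mt2* was −0.05 and that of *Spp1* 0.03, both of the opposite sign, that of *Fn1* 0.12 and that of *Klra17* 0.49. With at least 16 UMIs that of *Hspa1a* turned to 0.73, and those of *Slfn4* and *Cxcl1* were −0.87 and 0.41. Without *Rsad2*-led cells that of *Tnfrsf9* was 0.61, and thinned to 1500 UMIs 2.06. *Dock8*, *Dpy19l1* and *Gtpbp4* completed the 10 lowest with −1.20, −1.10 and −1.01.

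The highest ratio came from a single cell. *Retnla* (ENSMUSG00000061100, chr16:48842551-48844461), a secreted protein of alternatively activated macrophages, had 19.0 and 1183 CPM (5.96, 5.25 to 6.78), and all 870 UMIs of the library labelled *Lmo7*-/- were in 1 cell, against 16 UMIs in 4 cells of the *Lmo7*+/+ library. Counting intervals treat molecules as independent and do not cover such cells.

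**Figure D5:**
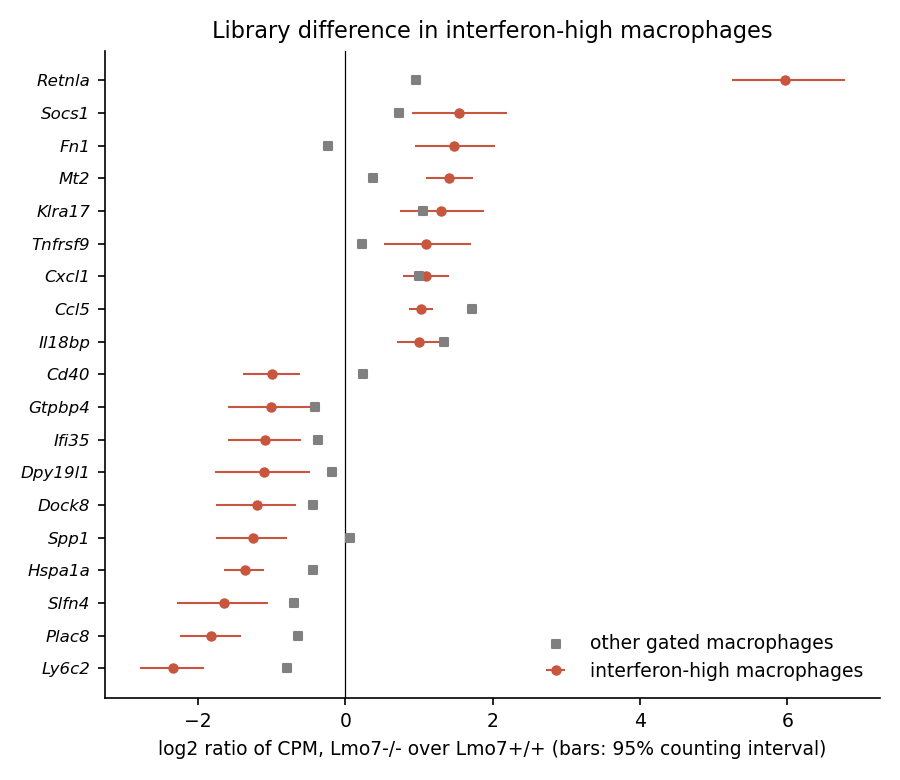
Log2 ratio of CPM in the library labelled *Lmo7*-/- over the *Lmo7*+/+ library for 9 of the 10 highest and the 10 lowest named genes, in interferon-high macrophages (circles, with 95% counting intervals) and in other gated macrophages (grey squares). *Ccl5*, *Klra17*, *Cxcl1* and *Il18bp* are also higher in other gated macrophages by at least 2-fold, while *Fn1*, *Spp1* and *Cd40* have opposite signs in the 2 groups.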

How the data were processed

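The authors deposited 1 filtered matrix of UMI counts per library, whole numbers per gene and droplet without normalization. The submitters' processing notes name Cell Ranger 2.1.1 and mm10. The matrix headers give software version 3.0.0 and the cell barcodes have 24 bases, so the software and chemistry behind the counts are uncertain, and the annotation is not given in the sources used here. Of the file's gene identifiers, 32158 were found in GENCODE M21 on GRCm38, which gave the gene positions. The quality filter asked for 500 genes, 1000 UMIs and a mitochondrial share of no more than 15%, since the study's methods give kinds of threshold without values, and its clustering was not repeated.

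Raw counts were summed over the gated cells of a library and expressed as CPM. Log2 ratios carry exact binomial intervals for the split of counts, and a group at 0 counts was set at a bound of 3 counts, left out where that bound lay on the wrong side of 0. No comparison was tested, since each genotype has 1 library and cells are not replicates. Genes were named if they were in a list, were *Lmo7*, or were among the 15 highest and 10 lowest ratios to other gated macrophages (ranked by the less extreme library) or the 10 highest and 10 lowest ratios between libraries, among genes with at least 100 counts and without rule, mitochondrial and ribosomal protein genes, or were the 10 most like the rule. Of the genes and lists so named, some are not reported here. The cells, lists and alternatives were chosen with earlier results of these data known. The split by *Rsad2* and leaving out the top cell of a gene were added after these data were seen. The comparison of cells with and without an *Ifnb1* UMI was not among the planned ones. A median of 6104.5 and 5988 UMIs per interferon-high macrophage limits single-cell shares, and the summed 843549 and 735568 UMIs limit ratios of genes with few counts. Of these steps, the log2 ratio and its interval were tried on simulated summed counts. Those counts were drawn independently, so they do not cover genes whose counts lie in 1 cell. The gates, thinning and motif search were not simulated. Tools were Python 3.11.15, numpy 2.4.6, scipy 1.17.1, pandas 2.3.3, matplotlib 3.10.9 and, for Scrublet, scanpy 1.11.5 with scikit-image 0.26.0. TMM scaling used edgeR 4.0.16 under R 4.3.3.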

Additional observations from a re-analysis of the deposited data

Results flagged for a closer look

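Among genes with at least 100 counts over interferon-high and other gated macrophages in each library, 5 differed between these cells by at least 2-fold in opposite directions in the 2 libraries. The difference between libraries was not tested in any of them, and each rests on few counts in interferon-high macrophages of at least 1 library. *Retnla* had a log2 ratio of 3.20 in the library labelled *Lmo7*-/- (870 counts, from 1 cell) and −1.80 in the *Lmo7*+/+ library (16 counts). *Sox4*, a transcription factor, had 1.04 (59 counts) and −1.58 (12 counts). *Rhbdd1*, a rhomboid protease, had 1.16 and −1.92 at 11 and 2 counts. *Cbr2*, a carbonyl reductase, had −1.97 and 1.02 at 3 and 23 counts. *Glmn* had −2.56 and 1.23 at 1 and 14 counts.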

How the results depend on the processing

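The share difference of −1.46 points moved between −1.76 (at least 10 *C1q* UMIs) and −0.665 (at least 16 UMIs of the 5 genes) over its alternatives, all inside its interval. Counts of genes depended on their minimum and on depth, which also set how many genes were compared. Against other gated macrophages, 134 higher and 140 lower genes became 219 higher without a count minimum, 55 lower with at least 100 counts, and 130 higher and 280 lower as means over cells. Between libraries, 171 higher and 205 lower of 6877 became 79 and 132 of 2870 with cells thinned to 1500 UMIs, a larger share, 9 and 9 of 2560 with at least 100 counts, and 652 and 678 of 9650 without a minimum. Between libraries, at least 16 UMIs shared 48 higher and 41 lower genes with the calls reported, and thinning to 1500 UMIs shared 9 and 12. The ratio of *Retnla* between libraries turned to −1.96 with at least 12 UMIs, −1.22 with at least 16, −2.02 with a gate of 20 UMIs per 10000, −2.21 with a gate on cells thinned to 2000 UMIs, and −1.53, a bound, without the cell with most counts. That of *Hspa1a* became 0.727 with at least 16 UMIs, and with the gate per 10000 those of *Mt2* and *Spp1* became −0.0453 and 0.0300 and the *Lmo7*+/+ ratio of *Gpnmb* to other gated macrophages −0.172. Summed chemokines, 0.0543 between libraries, became −0.0600, −0.0787 and −0.0597 with at least 12, at least 16 and the gate per 10000, so no direction holds. The causes were not tested. The summed ratio of other interferon-stimulated genes ranged from −0.319 to −0.204, that of interferon gamma targets from 0.256 to 0.513 and that of monocyte genes from −1.73 to −0.598. No paired analysis was possible because each genotype has 1 library, and no replicate could be left out.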

Other observations

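*Kdr*, the receptor for vascular endothelial growth factor on endothelial cells, was among the genes higher in both libraries although it is in none of the interferon lists. It was picked from the endothelial marker list after its values were seen. It had 27 and 19 UMIs in 19 and 10 interferon-high macrophages, at most 4 and 5 in a cell, or 32.0 and 25.8 CPM against 5.33 and 3.96 CPM in other gated macrophages (log2 ratio 2.59 and 2.70). *Pecam1*, which macrophages also express, had ratios of −0.22 and −0.15, *Cdh5* had 2 and 0 counts and *Tie1* none. The cells gated as endothelial had the highest summed level of the 5 interferon genes among the gated classes other than the interferon-high macrophages, 1096 and 654 CPM. The part of endothelial RNA in the *Kdr* value was not tested.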
